A study of Mus musculus with 6 samples.

Results

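Connexins and pannexins are the channel proteins through which epithelial cells pass ions and small molecules to each other and to the outside. The genes described here are Gja1, Gjb2, Gjb6 and Gjb5, which encode connexins, and Panx1, Panx2 and Panx3, which encode pannexins, 7 genes taken by symbol, with no threshold on their values. Of these, 6 were among the 17866 protein-coding genes of the table, 5 had enough reads to be tested, and Panx3 was not analysed here. The libraries came from the separated corneal epithelium of C57BL/6 mice at 6 months of age, 3 labelled wild type (WT) and 3 labelled Rela-/- (KO). In the study, the KO mice were Krt14-Cre; Rela f/f, so Rela, which codes for NF-κB p65, was deleted in epithelial cells that express K14, while cells of other lineages kept the gene. The labels give no Cre or floxed allele for the WT animals, and each library was an independent biological sample per the study's methods. As a check on these labels, Rela was at 1844 to 1871 estimated counts in the WT libraries and at 223 to 318 in the KO libraries.

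Connexins assemble in rings called hemichannels, and the hemichannels of neighbouring cells dock to form a gap junction. Different connexins can mix within a channel, and the mixture changes what passes, so the relative amounts of the connexins in a tissue matter as well as the total. In stratified epithelia such as the cornea and the skin, Gja1 (connexin 43) is a widely used connexin, most abundant towards the basal layers, whereas Gjb2 (connexin 26) and Gjb6 (connexin 30) are known for their rise in wounded or hyperproliferative epidermis and for mutations that cause deafness and skin disease. Pannexins do not usually dock between cells, and Panx1 is best known as a channel that releases ATP.

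The members did not all move together. In the KO libraries Gjb6, Gjb2 and Gja1 were 6.53-fold, 4.90-fold and 2.44-fold higher than in WT, Panx1 was 1.35-fold higher, and Gjb5 (connexin 31.1) did not pass the test. Thus 4 of the 5 tested members were called higher and none lower by edgeR's quasi-likelihood test at an adjusted p of 0.05. Over all 13305 tested genes 62.0% were called, 31.8% higher and 30.2% lower, so a call by itself was common in this comparison. By the stricter rule of the study, which asks for a change of at least 2-fold and an adjusted p no greater than 0.001, Gja1, Gjb2 and Gjb6 were called higher, 3 of the 5, against 19.8% of all tested genes (11.6% higher and 8.24% lower). The 3 KO libraries lay wholly above the 3 WT libraries for 4 of the 5, and over all tested genes this held for 34.7%, with 33.9% wholly below and 68.7% in either direction. The median log2 fold change of the 5 was 1.29, and that of all tested genes was 0.01.

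The promoters of the connexins are shown because the missing factor binds DNA and because 3 of these genes rose while Gjb5 did not pass the test. Each run is the 250 bases before the RefSeq gene start on GRCm38.p6, read along the gene's own strand, and the last letter adjoins the start. The windows are chr10:56377050-56377299 (plus strand) for Gja1, chr14:57104703-57104952 (minus) for Gjb2, chr14:57133612-57133861 (minus) for Gjb6 and chr4:127358165-127358414 (minus) for Gjb5. Capitals mark every match, on either strand, to the NF-κB consensus, the AP-1 motif TGANTCA, the TATA motif TATAAA or the GC box GGGCGG.
Gja1: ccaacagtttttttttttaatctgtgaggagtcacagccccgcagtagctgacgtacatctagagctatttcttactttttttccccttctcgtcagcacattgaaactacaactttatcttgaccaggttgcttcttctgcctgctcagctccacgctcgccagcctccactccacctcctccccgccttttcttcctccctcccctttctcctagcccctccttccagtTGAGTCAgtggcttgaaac
Gjb2: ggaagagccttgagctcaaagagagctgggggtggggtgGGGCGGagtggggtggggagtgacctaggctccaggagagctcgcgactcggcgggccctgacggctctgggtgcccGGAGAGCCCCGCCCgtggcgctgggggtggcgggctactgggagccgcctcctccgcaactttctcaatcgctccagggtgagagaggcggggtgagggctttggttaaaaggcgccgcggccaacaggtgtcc
Gjb6: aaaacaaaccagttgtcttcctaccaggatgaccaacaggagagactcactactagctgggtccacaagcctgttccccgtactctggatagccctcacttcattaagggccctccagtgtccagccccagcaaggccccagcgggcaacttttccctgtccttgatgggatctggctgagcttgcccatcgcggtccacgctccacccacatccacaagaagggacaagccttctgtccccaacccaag
Gjb5: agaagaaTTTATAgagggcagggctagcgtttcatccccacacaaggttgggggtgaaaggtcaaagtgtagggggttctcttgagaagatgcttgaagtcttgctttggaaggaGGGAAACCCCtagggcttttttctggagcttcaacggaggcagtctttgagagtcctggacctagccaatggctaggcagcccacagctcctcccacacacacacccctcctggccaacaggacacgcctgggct
The NF-κB consensus was found in Gjb2, 134 to 125 bases before the start, and in Gjb5, 135 to 126 bases before it, and in neither Gja1 nor Gjb6. In Gjb2 that match reads on the strand opposite to the printed one. Its last printed letters are shared with a GC box on the same opposite strand, which ends 121 bases before the start. A further GC box, on the printed strand, lies 211 to 206 bases before the start. Gja1 holds an AP-1 match 19 to 13 bases before the start, and Gjb5 a TATAAA match on the opposite strand 243 to 238 bases before the start. No match to the 4 motifs was found in Gjb6 or in the Panx1 window, which is not printed. Among 32851 RefSeq promoter windows of this length, 7.25% held the NF-κB consensus, 6.75% the AP-1 motif, 12.4% the TATA motif and 32.7% the GC box. GC content was 69.2% in the Gjb2 window, 56.8% in Gjb6, 54.4% in Gjb5 and 50% in Gja1, beside a median of 52.4% over all windows. The match to the consensus was thus present in 1 connexin that rose and in 1 that did not pass the test.

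Gja1 (gene 14609, GRCm38 chromosome 10, positions 56377300 to 56390419) was the most abundant of the member connexins in WT. Its levels in FPKM, fragments per kilobase of gene per 1000000 reads, were 96.7, 99.7 and 79.7 in the WT libraries and 211.2, 257.2 and 161.3 in the KO libraries. Every KO library lay above every WT library, with KO replicate 2 the highest. The mean rose from 92.1 ± 10.8 to 209.9 ± 48.0 FPKM (SD, n = 3 each), and edgeR gave a log2 fold change of 1.29 (SE 0.168, 95% interval 0.90 to 1.67, adjusted p = 2.59e-04). Of all tested genes, 13.0% had a larger log2 fold change. Leaving out WT replicate 1, WT replicate 3 or KO replicate 1 raised the edgeR adjusted p of Gja1 to 0.00163, 0.00166 and 0.00128, above the 0.001 of the study's rule and below 0.05.

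Gjb2 (gene 14619, chromosome 14, positions 57098602 to 57104702) rose further. The WT libraries had 58.7, 69.6 and 61.1 FPKM and the KO libraries 385.6, 260.1 and 218.7. The groups were far apart, and KO replicate 1 stood above the other two KO libraries. The log2 fold change was 2.29 (SE 0.214, 95% interval 1.80 to 2.78, edgeR adjusted p = 4.38e-05), and 2.01 without KO replicate 1. Within each library the ratio of Gjb2 to Gja1 FPKM was 0.607, 0.698 and 0.767 in WT and 1.83, 1.01 and 1.36 in KO, so Gja1 was the higher of the pair in every WT library and Gjb2 in every KO library.

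Gjb6 (gene 14623, chromosome 14, positions 57123301 to 57133611) was a minor connexin in WT, at 6.04, 5 and 8.50 FPKM. In KO it stood at 51.9, 34.2 and 33.4 FPKM, again with KO replicate 1 the highest and no overlap with WT. Its log2 fold change of 2.71 (SE 0.254, 95% interval 2.12 to 3.29, edgeR adjusted p = 4.58e-05) was the highest of the members, and 6.79% of all tested genes had a higher one. Without KO replicate 1 it was 2.44. Gjb6 lies 18598 bases from Gjb2 on the same strand, and the ratio of Gjb6 to Gjb2 FPKM was 0.105 ± 0.0336 in WT and 0.140 ± 0.0114 in KO (SD, n = 3 each), with overlapping values. On the near side of the pair, Gja3, a connexin best known from the lens, had at most 5 counts in any library. On the far side, Cryl1, the next gene of the table at 141422 bases, had a log2 fold change of 0.02 (edgeR adjusted p = 0.927). Both epithelial connexin genes of this cluster were thus called higher, and that flanking gene did not pass the test.

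Gjb5 (gene 14622, chromosome 4, positions 127354809 to 127358164) had 12.3, 17.4 and 15.8 FPKM in WT and 15.6, 16.7 and 14.6 FPKM in KO. The groups overlapped entirely. Its log2 fold change was 0.14 (SE 0.143, 95% interval -0.19 to 0.46, edgeR adjusted p = 0.434), and it became -0.05 with a correction for gene length. The interval leaves room for a change of modest size in either direction, but not for one like that of Gjb2.

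**Figure D1:**
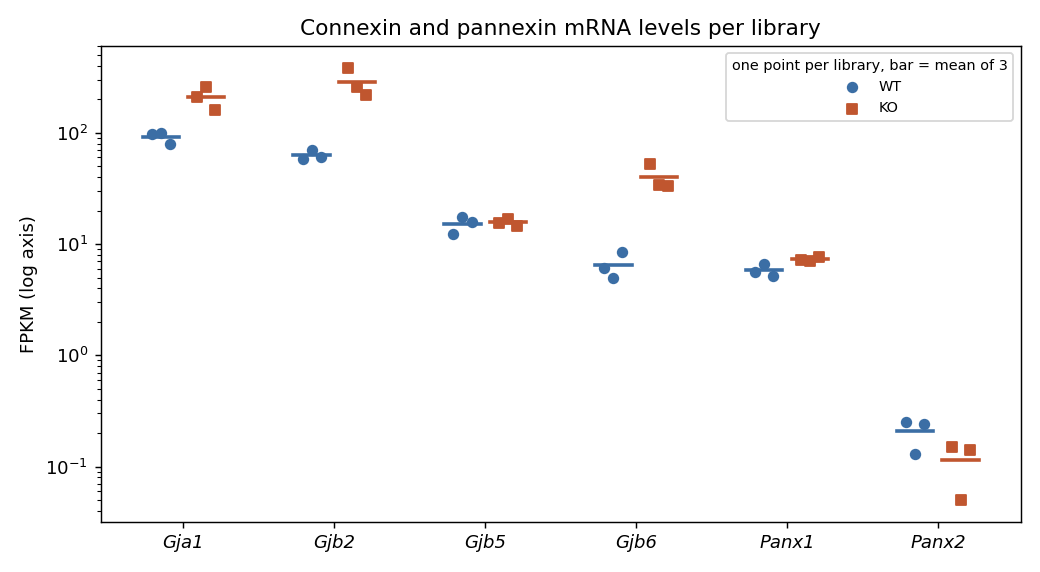
FPKM on a log axis for the 4 member connexins and the 2 pannexins in the table, with 1 point per library (circles WT, squares KO) and a bar at the mean of 3. Gja1, Gjb2, Gjb6 and Panx1 sit higher in all KO libraries, Gjb5 overlaps, and Panx2 lies more than 10 times below Panx1.

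Reads of the members could rarely be confused by sequence. With reads of 50 bases, no 50-base window of a GENCODE M21 transcript was shared between the connexins and pannexins examined. Of the windows of Gja1, 0.115% were shared with any other gene, and none of Gjb2, Gjb5, Gjb6, Panx1 or Panx2. Among the other connexins tested, 2.07% of the windows of Gjc3, 5.52% of Gje1 and none of Gja4 were shared with another gene.

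Of 13 other connexins listed, 10 were in the table and 3 were tested, with 1 higher, 1 lower and 1 not called, all of them at low levels. Gja4 (connexin 37), best known from vascular endothelium, was counted 22, 22 and 40 times in WT libraries and 11, 4 and 8 times in KO libraries (log2 fold change -1.75, SE 0.444, edgeR adjusted p = 0.00866). Gjc3 (connexin 29), a glial connexin, had a log2 fold change of 0.53 (SE 0.187, edgeR adjusted p = 0.037) at no more than 1.19 FPKM. Gje1 had one of -0.38 (edgeR adjusted p = 0.188), and was called lower with the gene length offset (adjusted p = 0.0397). The call of Gjc3 was lost with the replicate number as a block (adjusted p = 0.0729) and in 9 other alternatives. The remaining 7 had at most 14 counts in any library.

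**Figure D2:**
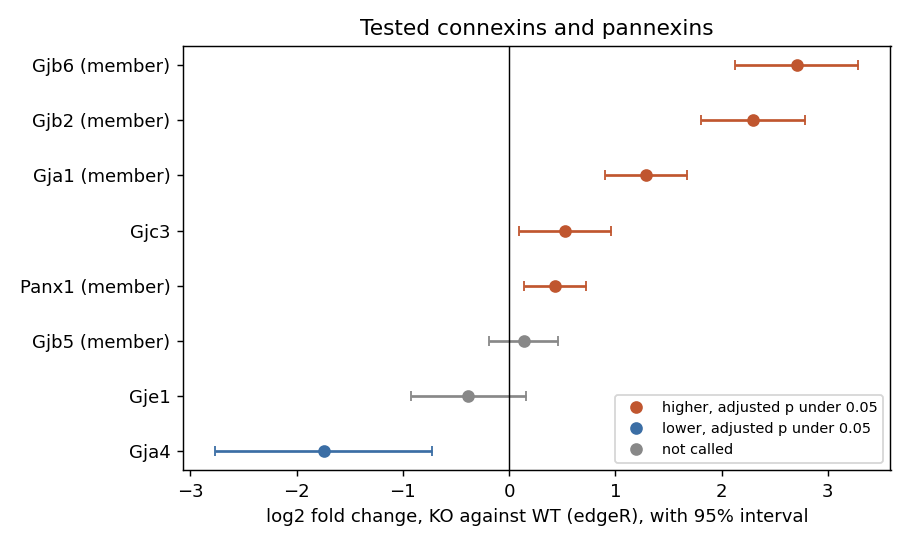
Log2 fold change of KO against WT for 8 tested connexins and pannexins, each with its 95% interval from edgeR. Gjb6, Gjb2 and Gja1 lie farthest to the right at 2.71, 2.29 and 1.29, Gjb5 and Gje1 cross 0, and Gja4 lies to the left at -1.75.

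The share of each of the 4 member connexins in their summed TPM (a level per length, scaled to sum to 1000000 in a library) was compared between libraries. These are shares of mRNA, and which of the 4 mix within a channel was not measured. Other connexins are not part of this sum. The size of a difference by TPM can depart from that by edgeR. Gja1, 2.44-fold higher by edgeR, had a mean of 198 ± 26.5 TPM in WT and 380 ± 85.7 in KO (SD, n = 3 each). The summed level of the 4 was 378.8, 412.8 and 346.1 TPM in WT and 1225.5, 1017.4 and 769.1 TPM in KO. This summed level was thus higher in every KO library than in any WT library. Gjb2 supplied 33.8%, 36.3% and 37.0% of it in WT and 58.0%, 45.8% and 51.1% in KO. Gja1 supplied 55.7%, 52.0% and 48.3% in WT and 31.8%, 45.3% and 37.7% in KO: its own level rose, yet its share was lower in every KO library. Gjb6 went from 3.74% ± 1.29 to 7.21% ± 1.03 and Gjb5 from 8.59% ± 1.32 to 2.90% ± 0.534 (SD, n = 3 each, neither overlapping). The order of the shares was Gja1, Gjb2, Gjb5 and Gjb6 in WT, and Gjb2, Gja1, Gjb6 and Gjb5 in KO. In both genotypes no neighbours in this order overlapped, but in KO replicate 2 Gjb2 and Gja1 were within 1 percentage point. By estimated counts, not divided by length, the KO shares of Gja1 (38.5%, 52.7% and 45.0%) and Gjb2 (54.2%, 41.2% and 47.1%) overlapped, and Gja1 was the higher in KO replicate 2. The ratio of Gjb5 to Gja1 FPKM was 0.167 ± 0.0363 in WT and 0.0764 ± 0.0131 in KO (SD, n = 3 each). Shares sum to a fixed total, so a connexin can lose share without a fall in its own level. By TPM, the scale of these shares, the mean of Gjb5 was 32.5 ± 5.37 in WT and 28.3 ± 1.85 in KO (SD, n = 3 each).

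**Figure D3:**
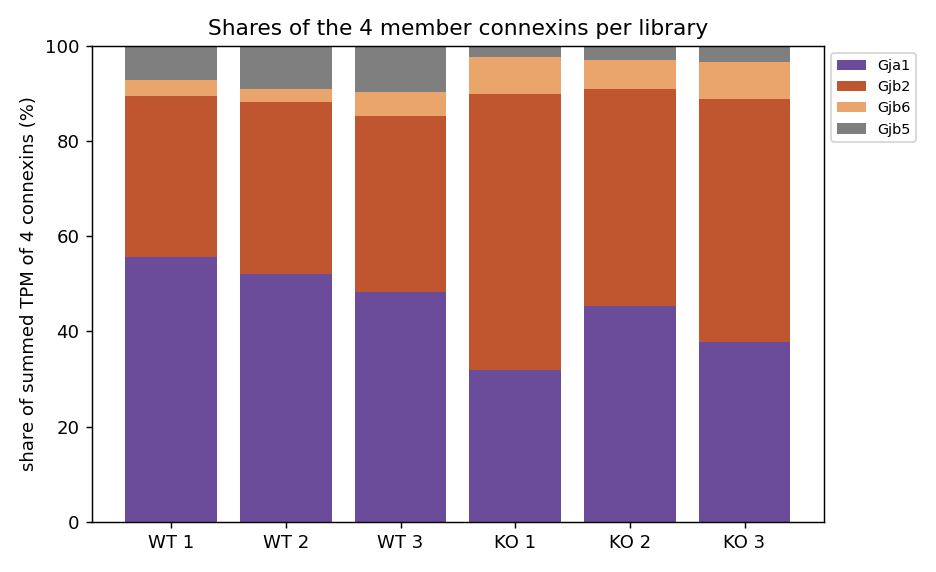
Share of each of the 4 member connexins in their summed TPM, with 1 stacked bar per library and the bar height fixed at 100%. Gjb2 widens from 35.7% on average in WT to 51.6% in KO, Gja1 narrows from 52.0% to 38.2%, and Gjb5 from 8.59% to 2.90%.

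Among the pannexins, Panx1 (gene 55991, chromosome 9, positions 15000944 to 15045478) was counted 243, 284 and 222 times in WT libraries and 308, 294 and 335 times in KO libraries. In FPKM these were 5.66, 6.59 and 5.13 in WT and 7.14, 7.01 and 7.71 in KO, each KO library above each WT library by a small margin. The difference was smaller by TPM, at a mean of 12.4 ± 1.72 in WT and 13.2 ± 0.655 in KO (SD, n = 3 each). The log2 fold change was 0.43 (SE 0.127, 95% interval 0.14 to 0.72, edgeR adjusted p = 0.0168). The call was lost with totals as the only scaling (adjusted p = 0.0508), without WT replicate 3 (0.0506) and without KO replicate 3 (0.0581). Panx2, a pannexin best known from brain, was read 12, 6 and 12 times in WT libraries and 8, 2 and 7 times in KO libraries, under the filter on low counts, and was not tested. In the edgeR fit with no filter its log2 fold change was -0.72 (95% interval -2.02 to 0.58, adjusted p = 0.334).

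A gap junction needs scaffolds that hold it at the membrane, kinases that gate and remove connexins, and adhesion that brings the cells together. Of the 17 symbols listed for such genes, Nov and Ccn3 name the same gene, and all 16 genes were in the table and tested: 2 were higher in KO, 9 lower and 5 not called, with a median log2 fold change of -0.33. The scaffold gene Tjp1, whose ZO protein binds connexins, fell from 81.8 ± 0.406 to 41.9 ± 3.16 FPKM (SD, n = 3 each; log2 fold change -0.85, edgeR adjusted p = 1.67e-04). Cnst, the gene of consortin, which carries connexins to the membrane, fell by 0.88 on the log2 scale (edgeR adjusted p = 9.98e-04). Src, a kinase that phosphorylates the Gja1 protein, fell by 1.24 (edgeR adjusted p = 3.54e-05). Cav1, the caveolae protein, fell by 0.78 (edgeR adjusted p = 0.0164). Nov, a matricellular protein that binds the Gja1 protein, fell from 3.11 ± 1.09 to 0.170 ± 0.0794 FPKM (log2 fold change -4.12, edgeR adjusted p = 3.77e-05). The 2 that rose were Cdk1, the mitotic kinase, by 1.41 (edgeR adjusted p = 4.48e-04), and Dbn1, the actin binder drebrin, by 3.06 (edgeR adjusted p = 5.50e-04), the latter at no more than 36 counts in any library. The adhesion genes had small differences: Cdh1 (E-cadherin) had a log2 fold change of -0.32 (edgeR adjusted p = 0.0396, a call lost in 7 of 15 alternatives, where adjusted p reached 0.188) and Ctnnb1 (β-catenin) one of 0.20 (edgeR adjusted p = 0.0958). Ctnnb1 was called higher with DESeq2 (adjusted p = 0.0136) and with the length offset (0.0219). The other genes that did not pass were Akt1 (-0.22, adjusted p = 0.0507, called lower in 5 of 15 alternatives), Csnk1d (-0.14, called lower in 3), Mapk3 (0.20) and Prkca (-0.10). Of all tested genes 30.2% were called lower, beside 9 of the 16 partners. With the gene length offset these were 6 of the 16 partners, beside 4316 of the 13305 tested genes, and without WT replicate 1 or WT replicate 2 also 6 of the 16.

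ATP that leaves a cell through a pannexin or a connexin hemichannel is read by P2 receptors and broken down on the cell surface to adenosine. Of 17 genes listed for this route, 14 were tested, with 5 higher, 7 lower and 2 not called, and a median log2 fold change of -0.23, beside 31.8% higher and 30.2% lower over all tested genes. Among the enzymes, Nt5e (CD73), which makes adenosine from AMP, rose from 2.64, 5.82 and 3.41 FPKM in WT to 22.4, 21.2 and 23.8 FPKM in KO (log2 fold change 2.60, SE 0.258, edgeR adjusted p = 5.99e-05). Entpd1, which strips phosphates from ATP, rose by 1.27 (edgeR adjusted p = 0.0285), at no more than 1.01 FPKM in any library, and Entpd3 by 0.56 (edgeR adjusted p = 0.0212). Their relative Entpd2 fell by 0.68 (edgeR adjusted p = 7.52e-04), and Alpl, alkaline phosphatase, fell by 0.71 (edgeR adjusted p = 0.0234) with overlapping groups. Among the receptors, P2ry1 rose by 1.30 (edgeR adjusted p = 3.98e-05) and P2ry4 by 1.94 (edgeR adjusted p = 1.74e-04). P2rx7, the ATP-gated channel that works together with Panx1 in several cell types, fell by 1.11 (edgeR adjusted p = 4.84e-04), and P2ry2, the most abundant receptor of the list, fell from 67.8 ± 10.3 to 40.5 ± 4.91 FPKM (SD, n = 3 each; log2 fold change -0.67, edgeR adjusted p = 0.0038). Slc17a9, which loads ATP into vesicles, fell by 1.43 (edgeR adjusted p = 3.28e-04). Both enzymes and receptors were thus called in either direction. Some of these calls lay close to the threshold. The call of Entpd1 was lost without WT replicate 1 (adjusted p = 0.0761) or KO replicate 1 (0.0504), 2 (0.0621) or 3 (0.0699), where its log2 fold change was 1.204 to 1.344. That of Entpd3 was lost in 7 of 15 alternatives at log2 fold changes of 0.37 to 0.54: without WT replicate 2 (adjusted p = 0.0543) or 3 (0.0647) or KO replicate 1 (0.0551) or 2 (0.0617), with total counts only (0.0537) and in both limma fits (0.0559 and 0.0563). That of Alpl was lost without WT replicate 2 (adjusted p = 0.0666) or 3 (0.0963) or KO replicate 1 (0.0796) or 3 (0.0594), at log2 fold changes of -0.51 to -0.70. Without KO replicate 1 or KO replicate 2, 3 genes of the list were called higher instead of 5.

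**Figure D4:**
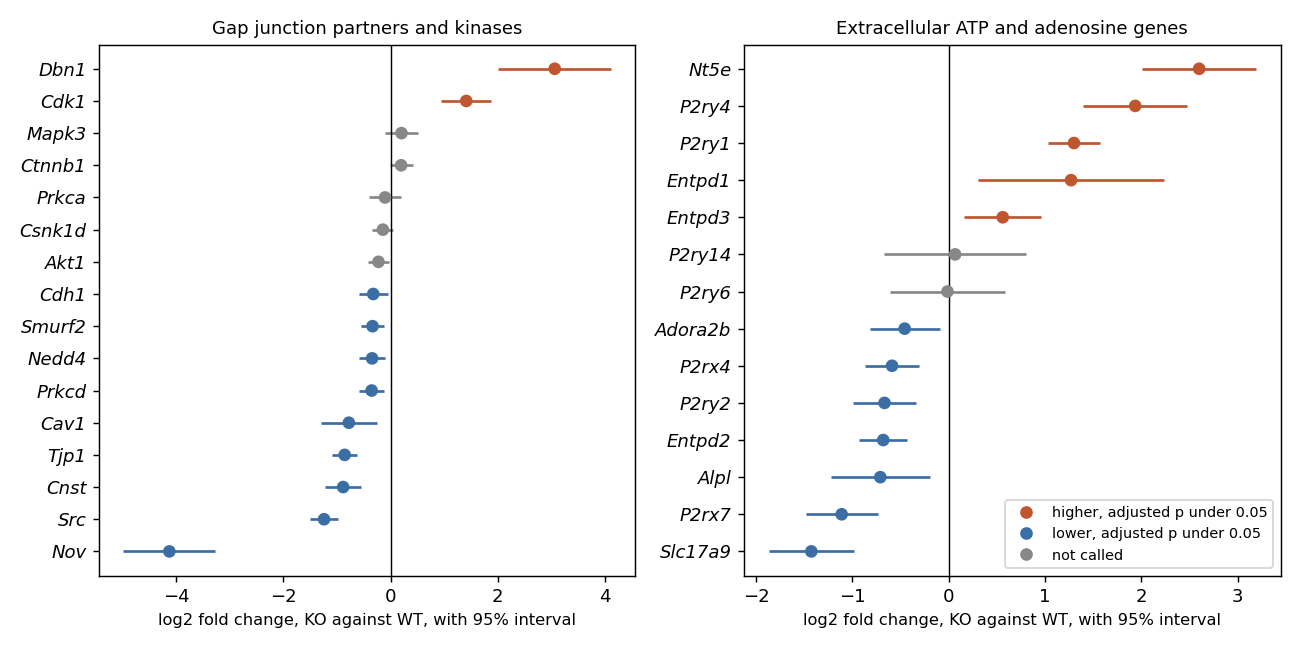
Log2 fold change of KO against WT, with 95% intervals from edgeR, for 16 tested partners and kinases on the left and the 14 tested genes of extracellular ATP and adenosine on the right. Most partner genes lie left of 0, with Nov at -4.12, and the right panel runs from Slc17a9 at -1.43 to Nt5e at 2.60.

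The tissue label was compared with markers. All 6 corneal epithelial markers (Krt12, Pax6, Aldh3a1, Tkt, Slurp1 and Upk1b) were abundant in WT and lower in KO, and their summed level went from 68054 to 68880 CPM in WT to 11587 to 14327 CPM in KO (CPM, counts scaled to a library total of 1000000 after TMM). The 5 epidermal markers summed to 15.1 to 20.1 CPM in WT and 10145 to 22708 CPM in KO, with Krt1, Krt10, Lor and Flg called higher and Krt2 at 0 in WT and at most 3 counts in KO. The 4 conjunctival markers summed to 1873 to 2900 CPM in WT and 52199 to 66915 CPM in KO, with all 4 called higher and the goblet cell mucin Muc5ac at 0 in every WT library. KO replicate 1, the highest KO library for Gjb2 and Gjb6, had both the highest epidermal sum and the highest conjunctival sum. In KO replicates 1, 2 and 3 the epidermal sums were 22708, 10145 and 13484 CPM. The conjunctival sums were 66915, 61557 and 52199 CPM in the same order. For Gja1 the highest was KO replicate 2, which had the lowest epidermal sum of the KO libraries. Between the genotypes, the sums of these keratinizing and conjunctival markers went in the same direction as Gja1, Gjb2 and Gjb6. The part of these markers in the connexin values was not tested. In bulk tissue, more cells of a type and more RNA per cell cannot be told apart. Among markers of other cells, 4 of the 7 stromal markers measured were called higher and Pdgfra lower (summed 13.3 to 16.9 CPM in WT, 15 to 24.4 in KO, with Lum at 0 in WT). Pdgfra, at 13.1 CPM in WT and 1.21 in KO, made up most of the WT sum, while Vim went from 0.905 to 10.3 CPM and Dcn from 0.0311 to 4.53. The 3 endothelial markers stayed at or under 0.897 CPM, with Kdr at 0 in WT. The endothelial marker Pecam1 was called higher in KO and the endothelial connexin Gja4 lower. Of the 5 immune markers 3 were called higher and 1 lower (270.7 to 346.9 CPM in WT, 260.3 to 326.8 in KO). Itgam, at 265.6 CPM in WT and 174.7 in KO, made up most of that sum, while Ptprc, Csf1r and Cd74 were 12.9-fold, 12.7-fold and 8.04-fold higher. The stromal and immune markers called higher went in the same direction as Gja1, Gjb2 and Gjb6, while Pdgfra and Itgam went in the opposite one. The part of these cells in the connexin values was not tested. Melanocyte markers summed to at most 9.65 CPM with 2 of 4 called lower, and 3 nerve and Schwann cell markers to at most 32.4 CPM, with Tubb3 called higher. Of the bone and cartilage markers only Ibsp was in the table, with at most 1 count in any library.

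For each tested member the 2 genes with the most similar pattern over the 6 libraries were looked up, among 10452 genes with a mean count of at least 100 (Pearson's r of log2 CPM, a description over 6 libraries that fall into 2 groups). For Gja1 they were Bcap29 (r = 0.997) and Nle1 (0.997), for Gjb2 Senp3 (0.999) and Thsd1 (0.999), and for Gjb6 Lin37 and Serpina9 (both 0.998). For Panx1 they were Nlrc5 (0.999) and Emd (0.998). High values were common for the members that rose, with 607 genes over 0.95 for Gja1, 1102 for Gjb2, 957 for Gjb6 and 244 for Panx1. Gjb5 had a single such gene, Atp2c1 (0.975), a calcium pump of the Golgi, followed by Fam76b (0.946).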

How the data were processed

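RNA of separated corneal epithelium was extracted with Trizol. The labels name an Illumina kit, while the study's methods describe ribosomal RNA depletion and single-end reads of 50 bases on a BGI instrument. Reads were filtered by the authors (SOAPnuke) and aligned with Bowtie2 2.2.5 and estimated gene levels with RSEM 1.2.12 (versions per the submitters' processing notes). The deposited table gives estimated counts, FPKM and TPM per library. For FPKM the authors divided estimated counts by length and total. The TPM of each deposited library sums to 1000000. The notes list the build mm9, but the table's coordinates are those of GRCm38. The authors' own fold changes, p-values and group averages in the table were not used. Whether counting used strand is not given in the sources used here.

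Each of the 18 per-library columns was matched to a sample by its name. Library totals lay between 20158404 and 20880347 estimated counts, and 3 counts equal 0.144 to 0.149 CPM. After rounding, estimated counts were tested by edgeR 4.0.16 (R 4.3.3; TMM, filterByExpr, glmQLFit and glmQLFTest, genotype only), with Benjamini-Hochberg adjustment over 13305 genes, and the procedure was tested on simulated data. TMM factors lay between 0.952 and 1.05. Alternatives used DESeq2 1.42.0, limma 3.58.1 and other scalings, filters, a length offset, a replicate block and each library left out. Promoters and connexin names came from RefSeq GRCm38.p6, where 5 of the 6 members in the table had a promoter. Motifs were sought on both strands.

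The members and lists were chosen with earlier results of these data known. All 7 members were named, and of the other lists up to 5 higher and 5 lower calls with the largest changes, genes with over 100 counts that did not pass, and the 2 nearest patterns per member. Cdh1 falls outside this rule and was named for its role after its values were seen. Panx3, Gja5, Gja10, Gjd2 and some marker genes were not analysed here. A few listed genes are left unreported, and the lists, their counts and the connexin shares leave them out; the shares are therefore over the 4 member connexins.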

Additional observations from a re-analysis of the deposited data

How the results depend on the processing

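The log2 fold changes of Gja1 (1.13 to 1.44), Gjb2 (2.01 to 2.45) and Gjb6 (2.44 to 2.98) kept their direction and their call in all 15 alternatives. Panx1 had 0.34 (adjusted p = 0.0508) with total counts only, and 0.38 to 0.55 with a library left out. Gjb5 was not called in any of the 15, and its value was -0.0504 with the gene length offset and 0.01 to 0.26 with a library left out. With a library left out, 2 or 3 members were at the study threshold. Of the other connexins, 0 were called higher instead of 1 with total counts only, the replicate block, DESeq2 or either limma fit and 0 to 1 with a library left out. Called lower were 2 instead of 1 with the length offset or either limma fit. With a mean count of at least 50, Gja4 and Dbn1 were not tested, so 0 other connexins were called lower and 1 partner higher. Of the ATP and adenosine genes, 3 to 4 were called higher with a library left out. Of the partners, 6 were called lower instead of 9 with the length offset, 11 with total counts only or either limma fit, and 6 to 10 with a library left out. The difference in share among the 4 member connexins (KO minus WT) was -5.69 percentage points for Gjb5 by TPM and -3.54 by estimated counts, an alternative chosen after seeing the data that is not divided by length. The share over all connexins is not reported here. Values of genes that did not pass turned sign for Prkca (0.14) with the length offset, and for P2ry14 with total counts only (-0.0235) and the length offset (-0.10). Leaving out a library gave -0.182 to 0.0169 for Prkca, -0.189 to 0.158 for P2ry6 and -0.211 to 0.306 for P2ry14. Unless a construction is named, the cause was not tested.

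The replicate numbers are shared by both genotypes, but deviations of same-numbered libraries over all genes correlated at only 0.0345, -0.00998 and 0.0606. Such values from 3 libraries per group cannot exclude a pairing, and the labels name none. With the replicate block 4149 genes were called higher and 3934 lower, beside 4231 and 4022 without it. Gja1 had a log2 fold change of 1.27 with the block, and its SE was 0.104 beside 0.168 without it. Genes with a few counts per library, such as Panx2, are limited by depth, and intervals cover counting error and the spread of 3 libraries per group.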
